A study of Mus musculus with 8 samples.

Results

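The genes described here are those whose level in 2 whole-kidney libraries, knockout 4 and wildtype 4 (also called the pair), lay outside the range of the other 6 libraries by a set ratio. They were chosen on CPM, the depth-scaled count of a gene (its reads over all reads counted to genes in that library). A gene was taken when it had at least 2 CPM in at least 2 libraries and the lower of its levels in knockout 4 and wildtype 4 was at least 1.5 times the highest of the other 6, or the higher of them was at most 0.67 times the lowest of the other 6. A set of 10 core clock genes was left out of the selection. Of 37583 genes in the files, 13010 passed the CPM minimum and 18 met the rule, 6 of them higher and 12 lower in knockout 4 and wildtype 4. Of the 12 lower genes, 4 met it only by its letter, with 0 reads on both sides of the ratio, which leaves 14 members with reads that set knockout 4 and wildtype 4 apart. With the core clock genes counted in, 0.0615% of genes past the minimum met the higher arm of the rule and 0.108% the lower arm. These shares and every difference between knockout 4 and wildtype 4 and the other 6 libraries are a description with no test, because the members were selected on them and no label sets these 2 libraries apart.

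The series sequenced RNA of whole mouse kidneys in 8 libraries. Those labelled knockout, 4 in all, have the genotype Six2Cre+ TFAP2Afl/fl TFAP2Bfl/WT, in which Cre recombinase driven from Six2, a gene of nephron progenitors, acts on a pair of floxed TFAP2A alleles and 1 floxed TFAP2B allele. The other 4 are labelled wildtype and come from control littermates given as WT, whose Cre and floxed alleles are not stated in the labels. A whole kidney also holds vessels, stroma and immune cells, which have no Six2 history. The labels give no age, sex, time of collection or batch, so the members are described as time-of-day candidates and no time is assigned to any library. Over all 8 libraries the Y-linked Ddx3y was at 73.0 to 92.5 CPM and Xist, which female cells express, at 0.570 to 1.03 CPM. Libraries are called by label and replicate number.

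The mammalian circadian clock is a loop of transcription and repression that runs in nearly every cell, including the cells of the kidney tubule. ARNTL (BMAL1) pairs with CLOCK or NPAS2 and binds E-box sequences to activate the Per and Cry genes, Nr1d1 and Nr1d2, Dbp and Ciart, and the PER, CRY and CIART proteins repress this activity. NR1D proteins repress Arntl and Npas2 in turn, while DBP and TEF drive many rhythmic output genes through D-box sequences, so Arntl and Npas2 run opposite to Dbp over the day.

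Promoters of members that hold a clock or hormone motif are shown first, because the Ciart and Slc16a1 windows carry the E-box, the sequence that ARNTL dimers bind. Each is the stretch of 250 bases before a RefSeq start on GRCm38.p6, written 5′ to 3′ on the strand of the gene, with motif letters in capitals. Ciart lies on the minus strand (chr3:95882229-95882478), Slc16a1 on the plus strand (chr3:104638414-104638663) and Gm13652, in 1 of its 5 windows, on the minus strand (chr2:75136816-75137065).
Ciart: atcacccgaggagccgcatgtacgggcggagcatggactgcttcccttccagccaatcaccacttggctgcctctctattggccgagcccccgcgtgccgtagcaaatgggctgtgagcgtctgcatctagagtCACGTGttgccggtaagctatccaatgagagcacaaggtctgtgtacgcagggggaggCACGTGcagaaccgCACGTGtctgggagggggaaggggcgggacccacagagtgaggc
Slc16a1: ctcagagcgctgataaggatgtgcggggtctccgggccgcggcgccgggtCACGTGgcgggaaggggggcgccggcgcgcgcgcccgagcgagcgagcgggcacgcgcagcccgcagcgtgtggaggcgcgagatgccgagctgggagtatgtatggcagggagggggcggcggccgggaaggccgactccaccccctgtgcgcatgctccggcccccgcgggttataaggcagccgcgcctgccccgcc
Gm13652: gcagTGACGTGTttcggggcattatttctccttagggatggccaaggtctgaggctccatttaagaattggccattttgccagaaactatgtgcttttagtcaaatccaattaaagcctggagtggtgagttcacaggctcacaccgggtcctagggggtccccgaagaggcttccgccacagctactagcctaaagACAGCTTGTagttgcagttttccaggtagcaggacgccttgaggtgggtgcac

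The capitals in Ciart and Slc16a1 mark the E-box CACGTG, which reads the same on both strands. Its first base lay at positions -116, -58 and -44 from the Ciart start and at -200 from the Slc16a1 start. In Gm13652 the capitals mark a short cAMP response element, searched as TGACGTNN, at position -246 and a glucocorticoid response element core, searched as ACANNNTGT, at position -53. Of 14 members, 8 had a window in the RefSeq table, 13 windows in all. Each search covered 300 bases, 250 before and 50 after the start, on both strands. The E-box was in 2 of the 13 member windows, against 7.15% of 32851 windows of the same length in the table, and in 4 of 14 windows of the core clock genes, those of Cry1, Per1 and Tef. The short cAMP element was in 2 overlapping Gm13652 windows, against 7.49% of all windows, and the glucocorticoid core in 1, against 6.85%. No member window held the D-box TTANGTAA (2.32% of all windows), the ROR element NTAGGTCA (2.59%), the full cAMP response element TGACGTCA (1.79%), which the short form overlaps, or the heat-shock element pair GAANNTTC (7.86%). A match is a run of letters and not a measured binding site.

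The libraries were counted to similar depth, between 13871861 and 16629301 reads in genes, with 19486 to 20547 genes detected. A count of 0 allows up to 0.180 to 0.216 CPM, counting error only. Summed CPM of 12 proximal tubule markers was 55198 to 66955 in knockout 4 and wildtype 4 and 63248 to 82319.8 in the other 6, as a kidney label calls for, and that of 6 skeletal muscle markers was at most 2.41 in any library. The targeted genes did not follow the labels. Tfap2a was at 5.65, 3.78, 4.97 and 5.99 CPM in knockout 1 to 4, against 4.08, 4.51, 5.32 and 2.75 CPM in wildtype 1 to 4, and Tfap2b at 69.2, 107, 56.3 and 92.0 CPM, against 100.2, 49.8, 74.7 and 85.4 CPM. Reads outside a deleted part still count towards a gene, and no source used here names the exons deleted, so every direction by genotype is one between libraries labelled knockout and libraries labelled wildtype. Knockout 2 and wildtype 1 held adrenal cortex transcripts. In a bulk sample, fewer cells of a type and less RNA per cell cannot be told apart.

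**Figure D1:**
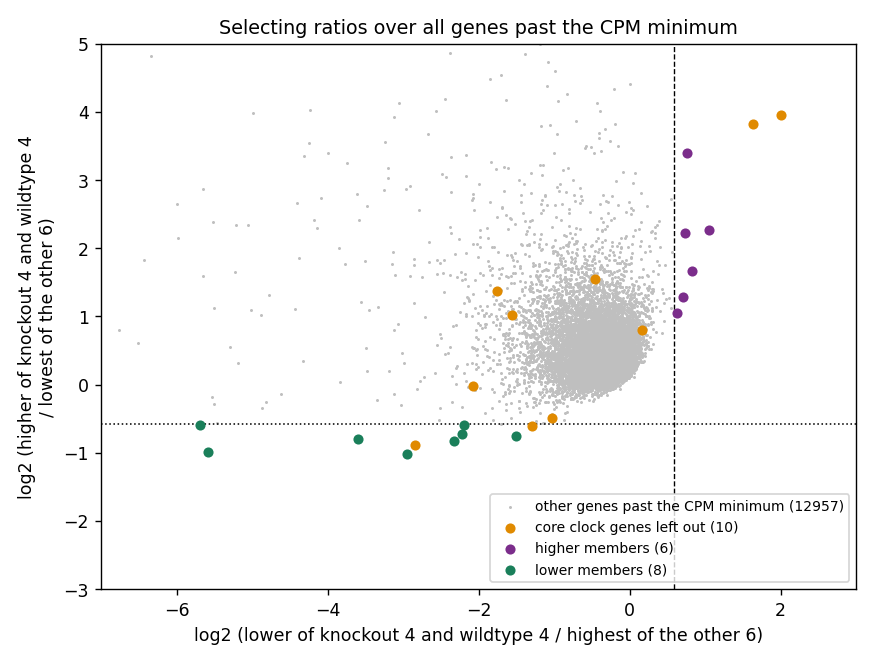
Selecting ratios of genes past the CPM minimum, on log2 axes. The x axis is the lower of knockout 4 and wildtype 4 over the highest of the other 6 libraries, and the y axis the higher of knockout 4 and wildtype 4 over the lowest of the other 6. Genes right of the dashed line (1.5 times) or below the dotted line (0.67 times) met the rule, and 27 of 12981 genes with a ratio on both axes lie past the edges. The 6 higher members sit in the right margin with 2 core clock genes, and the 8 lower members below the dotted line with 2 others.

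The core clock genes that were left out of the selection define what knockout 4 and wildtype 4 have in common. The 2 libraries were set apart by measured clock gene levels, so the levels given here describe the pair and test nothing. Of the 10, 4 met the same ratios, Arntl and Npas2 as higher and Dbp and Per3 as lower. Arntl was at 25.1 and 20.2 CPM in knockout 4 and wildtype 4, against 1.77 to 6.49 CPM in the other 6, and Npas2 at 18.9 and 16.2 CPM, against 1.22 to 4.03 CPM. Dbp was at 18.5 CPM in knockout 4 and 33.8 CPM in wildtype 4, against 62.2 to 133 CPM in the other 6. The activator genes Arntl and Npas2 were thus above, and their target Dbp below, every other library. Knockout 4 and wildtype 4 were not alike in all clock genes: Per1 was at 58.7 CPM in knockout 4 and 16.2 CPM in wildtype 4, Per2 at 43.8 and 19.4 CPM, and Nr1d1 at 48.3 and 90.2 CPM. For Per1 all of the other 6 libraries lay between these values, at 22.6 to 54.5 CPM. For Per2 both values were below the other 6, at 44.4 to 82.3 CPM. Nr1d1 was at 30.9 to 66.6 CPM in the other 6, so wildtype 4 lay above them and knockout 4 within their range. Cry1 was at 11.6 CPM in knockout 4, within the 5.69 to 13.2 CPM of the other 6, and at 4.48 CPM in wildtype 4, below them. Short of the ratios, Tef was also below the other 6, at 273 and 291 CPM in knockout 4 and wildtype 4 against 408 to 556 CPM. Clock was above them, at 69.0 and 67.2 CPM against 39.5 to 60.1 CPM.

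Among the lower members, Ciart is the 1 that belongs to the clock loop itself. Ciart (ENSMUSG00000038550, chr3:95878503-95882251, minus strand, GRCm38) encodes a repressor of ARNTL and CLOCK and carries the 3 E-boxes printed above. It was at 4.27 CPM in knockout 4 and 2.88 CPM in wildtype 4, against 7.55, 9.15 and 11.5 CPM in knockout 1 to 3 and 12.2, 8.60 and 14.5 CPM in wildtype 1 to 3. Both values were below the other 6, the higher of them at 0.565 times the lowest. The antisense gene C920021L13Rik overlaps it, and the counts were made without strand. That gene was at 1.45 and 2.81 CPM in knockout 4 and wildtype 4 and at 1.20 to 2.78 CPM in the other 6, so its own count did not move with Ciart.

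Cyp2a5 (ENSMUSG00000005547, chr7:26835305-26843548, plus strand) encodes the cytochrome P450 that hydroxylates coumarin, and in mouse liver its daily rhythm is driven by DBP. It was at 19.4 CPM in knockout 4 and 28.8 CPM in wildtype 4, against 90.3, 65.9 and 71.9 CPM in knockout 1 to 3 and 74.4, 50.5 and 47.7 CPM in wildtype 1 to 3. The higher of the pair was 0.604 times the lowest of the other 6. The near-identical copy Cyp2a4 makes this level uncertain, since reads that match both equally well were set aside. Cyp2a4 was also below the other 6, at 323 and 380.5 CPM in knockout 4 and wildtype 4 against 437 to 538 CPM, but by a smaller margin, with the higher of the pair at 0.871 times the lowest of the other 6.

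Tnfaip8 (ENSMUSG00000062210, chr18:49979427-50107173, plus strand), a regulator of cell death that TNF induces, was the most abundant member. It was at 119.7 CPM in knockout 4 and 149 CPM in wildtype 4, against 225, 298 and 427 CPM in knockout 1 to 3 and 550.5, 353 and 353 CPM in wildtype 1 to 3. The ratio of 0.665 is the nearest to the limit among the lower members, and with library sizes scaled by the trimmed mean of M-values (TMM) Tnfaip8 no longer met the rule. Its overlapping antisense gene C030005K06Rik was low with it, at 5.44 and 3.90 CPM in knockout 4 and wildtype 4 against 6.34 to 39.5 CPM in the other 6. Without strand, reads in a stretch that both genes share cannot be given to either.

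Nat8f6 (ENSMUSG00000079495, chr6:85808024-85820954, minus strand), of a family of N-acetyltransferases abundant in kidney, was the lower member with the tightest spread. It was at 23.7 CPM in knockout 4 and 29.1 CPM in wildtype 4, against 51.2, 49.1 and 67.0 CPM in knockout 1 to 3 and 55.2, 58.9 and 54.3 CPM in wildtype 1 to 3. The 6 other libraries spanned 1.36-fold, while the higher of the pair was 0.592 times the lowest of them. Nat8f5, a neighbour of the same family that overlaps it on the same strand, was also below every other library, at 32.3 and 36.9 CPM in knockout 4 and wildtype 4 against 49.0 to 88.6 CPM. Its ratio of 0.754 left it outside the rule, and reads in the shared stretch could not be given to 1 of the genes.

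The remaining lower members were scarce. Lep (ENSMUSG00000059201, chr6:29060220-29073877, plus strand), the fat cell hormone leptin, had 9 and 7 reads in knockout 4 and wildtype 4, which is 0.619 and 0.448 CPM, against 1.52, 1.26 and 3.46 CPM in knockout 1 to 3 and 1.36, 2.04 and 1.39 CPM in wildtype 1 to 3. The 7 adipocyte markers, Lep among them, summed to 455 to 677 CPM in knockout 4 and wildtype 4 and 240 to 865 CPM in the other 6. Knockout 3, with the highest Lep, had a sum of 243 CPM. The part of fat in the level of Lep was not tested. Wfdc16 (ENSMUSG00000070530, chr2:164634707-164638796, minus strand), of the WAP four-disulfide core family, was at 1.10 and 0.640 CPM in knockout 4 and wildtype 4, against 2.03, 1.92 and 5.55 CPM in knockout 1 to 3 and 2.45, 3.43 and 7.73 CPM in wildtype 1 to 3. The higher of the pair was 0.573 times the lowest of the other 6, which for Lep was 0.492.

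Rpph1 and an unannotated gene varied widely among the other 6 libraries. Rpph1 (ENSMUSG00000092837, chr14:50807449-50807767, minus strand), the RNA component of RNase P, was at 0.757 and 0.576 CPM in knockout 4 and wildtype 4, against 27.6, 4.71 and 2.52 CPM in knockout 1 to 3 and 2.99, 1.503 and 16.7 CPM in wildtype 1 to 3. The unannotated ENSMUSG00000093098 was at 1.31 and 1.47 CPM, against 67.3, 8.88 and 3.60 CPM in knockout 1 to 3 and 11.1, 3.49 and 2.22 CPM in wildtype 1 to 3. The other 6 spanned 18.4-fold for Rpph1 and 30.4-fold for ENSMUSG00000093098, with knockout 1 the highest for both. Knockout 1 also had the largest share of reads outside genes, 16.2%, where the other libraries had 11.6% to 14.5%. Its summed erythroid markers were the highest as well, at 7719 CPM, against 117 CPM (wildtype 3) to 1307 CPM (wildtype 1) in the others. The part of these in the 2 levels was not tested. Rpph1 lies inside the gene Ccnb1ip1, which was at no more than 0.959 CPM in any library.

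The 4 genes that met the lower rule by its letter had nearly all of their reads in the libraries that hold adrenal transcripts. Th and Pnmt, enzymes of catecholamine synthesis, Nr5a1, the steroidogenic factor of the adrenal cortex, and Bcan, a matrix protein of the nervous system, had 0 reads in knockout 4 and wildtype 4 and in at least 3 of the other libraries. Th was at 14.0 and 15.6 CPM in knockout 2 and wildtype 1, Nr5a1 at 8.35 and 9.17 CPM, Pnmt at 7.69 and 8.83 CPM and Bcan at 3.12 and 2.11 CPM. Outside these libraries Th and Nr5a1 had 1 read each, in knockout 1. Knockout 4 and wildtype 4 were therefore level with 3 or 4 other libraries for these genes, and summed adrenal cortex markers were 5.82 to 13.4 CPM in knockout 4 and wildtype 4.

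**Figure D2:**
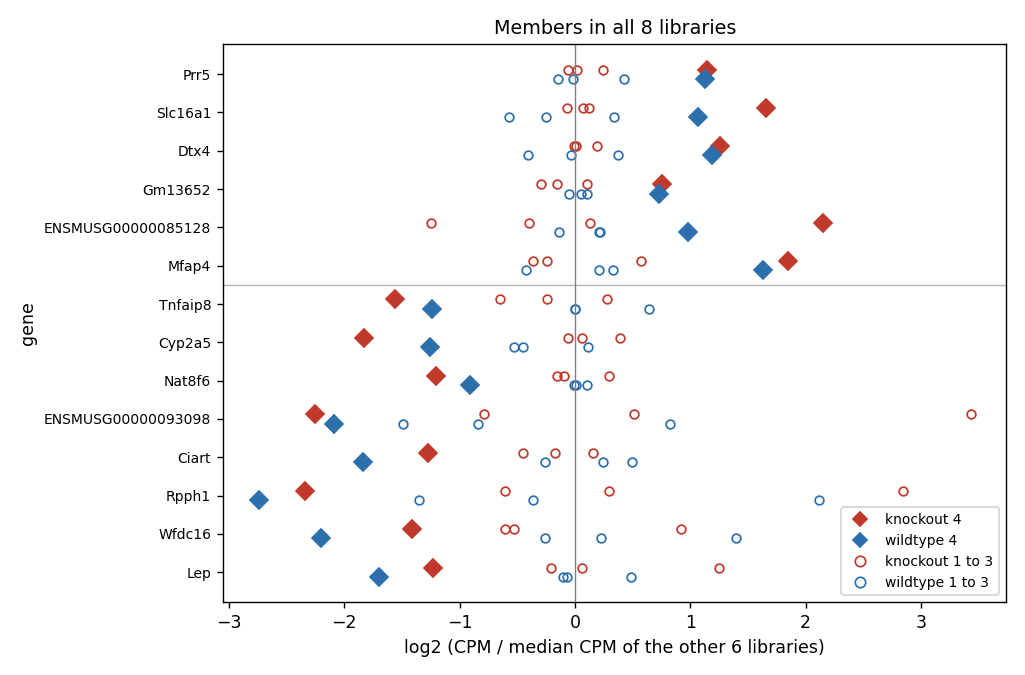
Each of the 14 members in all 8 libraries, as log2 of CPM over the median CPM of the other 6. Filled diamonds are knockout 4 and wildtype 4, open circles the other 6, red the label knockout and blue wildtype. The grey line parts the 6 higher members, whose diamonds lie right of every circle, from the 8 lower ones, whose diamonds lie left of every circle, and the circles spread widest for ENSMUSG00000093098 and Rpph1.

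The higher members were led by Prr5, Slc16a1 and Dtx4. Prr5 (ENSMUSG00000036106, chr15:84669620-84703673, plus strand) encodes a subunit of the mTORC2 kinase complex. It was at 60.7 CPM in knockout 4 and 59.9 CPM in wildtype 4, against 27.7, 32.5 and 26.2 CPM in knockout 1 to 3 and 24.8, 27.1 and 36.9 CPM in wildtype 1 to 3. Knockout 4 and wildtype 4 had nearly the same level, at least 1.62 times that of any other library.

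Slc16a1 (ENSMUSG00000032902, chr3:104638668-104658462, plus strand), with an E-box in its promoter, encodes MCT1, which carries lactate, pyruvate and ketone bodies across the cell membrane. It was at 73.2 CPM in knockout 4 and 48.7 CPM in wildtype 4, against 25.2, 24.3 and 22.1 CPM in knockout 1 to 3 and 19.5, 29.3 and 15.6 CPM in wildtype 1 to 3. Here knockout 4 was 1.503 times wildtype 4, so the 2 libraries stood apart from the rest by different amounts. Dtx4 (ENSMUSG00000039982, chr19:12466338-12501454, minus strand), a ubiquitin ligase of the Deltex family linked to Notch signalling, was at 41.3 and 39.4 CPM in knockout 4 and wildtype 4, against 17.1, 19.7 and 17.4 CPM in knockout 1 to 3 and 16.8, 22.3 and 13.0 CPM in wildtype 1 to 3. The ratio of 1.77 to the highest other library was the largest among members above 5 CPM on average.

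**Figure D3:**
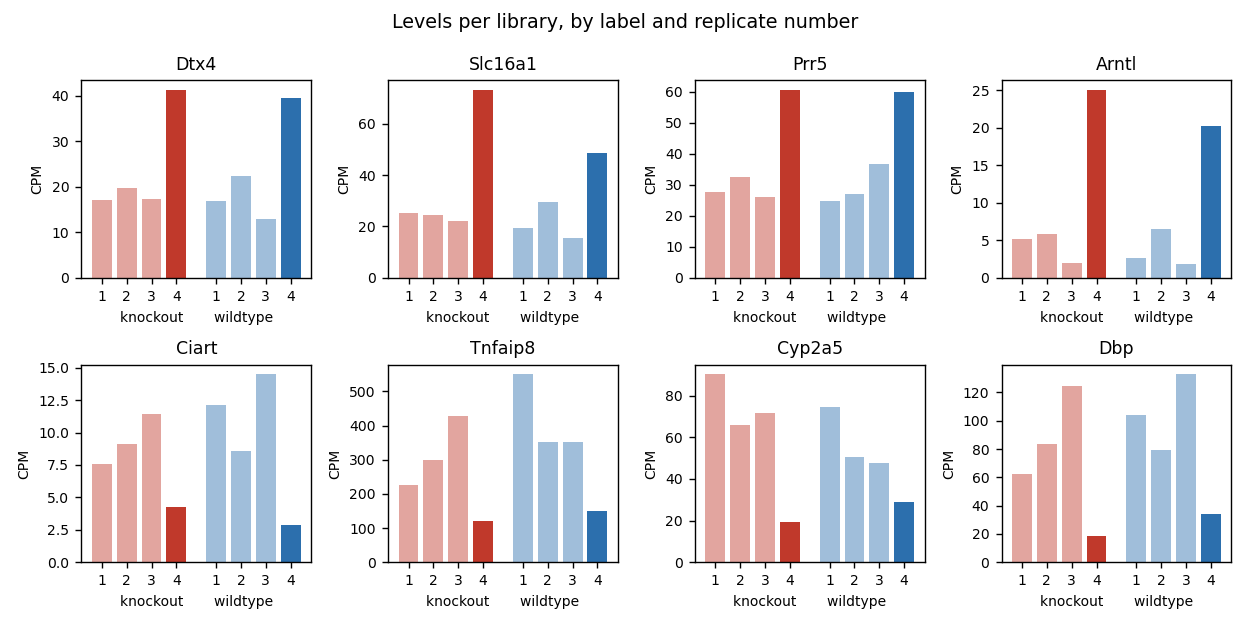
CPM in each library for 3 higher members and Arntl (top) and 3 lower members and Dbp (bottom), bars numbered by replicate with knockout (red) left of wildtype (blue). Full colour marks knockout 4 and wildtype 4. The 2 full bars stand above all pale bars in the top row and below them in the bottom row, and those of Dtx4 and Prr5 are nearly equal.

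The other higher members were low in every library. The long non-coding RNA Gm13652 (ENSMUSG00000087333, chr2:75124871-75137798, minus strand) was at 8.40 and 8.25 CPM in knockout 4 and wildtype 4, against 4.06, 5.37 and 4.47 CPM in knockout 1 to 3 and 5.37, 5.17 and 4.81 CPM in wildtype 1 to 3. It had the tightest spread of all members over the other 6, 1.32-fold, and the higher ratio nearest to the limit, 1.54. The unannotated ENSMUSG00000085128 was at 12.7 and 5.63 CPM, against 1.21, 3.12 and 2.16 CPM in knockout 1 to 3 and 3.33, 3.31 and 2.60 CPM in wildtype 1 to 3. The 2.25-fold gap between knockout 4 and wildtype 4 was the widest of any member. Mfap4 (ENSMUSG00000042436, chr11:61485431-61488900, plus strand), a protein of elastic microfibrils outside cells, rests on 40 and 37 reads, 2.75 and 2.37 CPM in knockout 4 and wildtype 4, against 1.14, 0.597 and 0.649 CPM in knockout 1 to 3 and 0.883, 0.962 and 0.570 CPM in wildtype 1 to 3. It was the only member of the 6 to stay at a ratio of 2, and the only one lost when knockout 4 or wildtype 4 was left out, because it then had 2 CPM in fewer than 2 libraries. Mapk7 on the opposite strand of the Mfap4 locus was at 9.29 and 9.46 CPM in knockout 4 and wildtype 4 and 7.23 to 11.5 CPM in the other 6.

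Beyond the ratio limits, genes thinned out without a gap. The nearest gene outside the higher limit was Rasl11a, a small GTPase, at 7.30 and 5.69 CPM in knockout 4 and wildtype 4 against 1.90 to 3.84 CPM, a ratio of 1.48, and next was Fga, a fibrinogen chain, at 36.4 and 36.3 CPM against 16.7 to 24.7 CPM, a ratio of 1.47. Outside the lower limit were Cfap54, a protein of cilia, with a ratio of 0.671 and Trim59 with 0.677. Nr1d2, the clock repressor that pairs with Nr1d1 in function, followed with 0.679, at 84.2 and 93.3 CPM in knockout 4 and wildtype 4 against 137 to 186 CPM in the other 6. The limits therefore separate genes of nearly equal ratio, and the number of members depends on single libraries. With knockout 4 left out, 23 genes were higher and 61 lower, and with wildtype 4 left out 85 and 62. Leaving out 1 of the other 6 gave 6 to 14 higher genes and 9 to 19 lower ones, with 12 higher without knockout 1, 14 higher without knockout 2 and 19 lower without wildtype 3.

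Lists of related genes place the members among their pathway. With no limit on the ratio, 6.49% of genes past the CPM minimum were above the other 6 libraries in both knockout 4 and wildtype 4, and 3.58% were below them in both. Of 16 further clock loop genes past the minimum, 0 were above and 4 below, namely Ciart, Nr1d2, Cry2 and Rora. Cry2, a repressor, was at 27.8 and 22.5 CPM in knockout 4 and wildtype 4 against 33.1 to 45.5 CPM, and Rora, an activator of Arntl, at 73.5 and 66.8 CPM against 82.3 to 94.8 CPM. Of 47 rhythmic output genes, 5 were above, Dtx4, Ypel2, Leo1, Clpx and Avpr1a, and 9 below. Those below included Tsku, at 12.1 and 12.7 CPM in knockout 4 and wildtype 4 against 16.9 to 45.6 CPM, and Coq10b, which serves coenzyme Q, at 38.3 and 36.1 CPM against 51.3 to 82.0 CPM. Usp2, a deubiquitinase, was at 177 and 107 CPM against 213 to 246 CPM. These counts are read from the same libraries as the rule and support nothing about it.

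Lists for other states and cell types also held genes on either side. Of 22 heat-shock genes 1 was above and 0 below, and of 14 immediate early genes 0 were above and 1 below (Ier3). Of 19 glucocorticoid-responsive genes 1 was above (Klf9) and 1 below (Hsd11b1). Of 27 fasting and fatty acid genes and 17 unfolded protein response genes none was on either side. These counts miss levels that were high in knockout 4 alone. Heat-shock genes summed to 4950 CPM in knockout 4 and 3130 CPM in wildtype 4, against 2857 to 4303 CPM in the other 6. Immediate early genes summed to 465 and 175 CPM, against 183 to 283 CPM, and glucocorticoid-responsive genes to 1974 and 1338 CPM, against 1513 to 1892 CPM. Hspa1a was at 161 and 3.45 CPM, against 3.49 to 72.3 CPM. Of 15 sterol synthesis genes 2 were above, and their summed level was 2103 to 2229 CPM in knockout 4 and wildtype 4 against 1573 to 1823 CPM. Podocyte markers moved with the 2 libraries as well: 5 of 6 were above the other 6, and their sum was 174 to 186 CPM in knockout 4 and wildtype 4 against 93.0 to 160 CPM. Of 12 proximal tubule markers, 2 were above (Slc5a2 and Slc5a12) and 2 below (Kap and Slc27a2), and of 16 sex-dimorphic kidney genes 0 were above and 2 below (Kap and Cyp2a4). The summed markers of the distal convoluted tubule were 1058 to 1206 CPM in knockout 4 and wildtype 4 against 1216 to 1602 CPM, although 0 of its 5 markers lay above or below the other 6 in both libraries. The part of these cell types in the members' levels was not tested. Of the 14 members, Lep alone is on a marker list.

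The genotype labels cut across the selection, since knockout 4 and wildtype 4 carry different labels. The rule took genes with 1 extreme library in each label, which widens the spread within a label, so the number of members called and their standard errors are in large part set by the selection and do not show that the genotype has no effect on them. By edgeR's quasi-likelihood test over 14433 genes, 0 of the 14 members passed an adjusted p of 0.05, and 0 had an unadjusted p under 0.05. Over all genes the test also called none (0%), with 578 at an unadjusted p under 0.05, and DESeq2 called 4 genes, none of them a member, with 715 of 24562 under 0.05. Nothing in the labels ties each library to its own animal, so these p-values reflect library-to-library spread, which may be technical. The median log2 difference, libraries labelled knockout minus libraries labelled wildtype, was 0.042 over the members and 0.0061 over all genes tested. The median standard error was 0.47 for members and 0.16 for all genes, a gap that the selection builds in.

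Dtx4 averaged 23.9 ± 11.7 CPM in libraries labelled knockout and 22.9 ± 11.7 CPM in libraries labelled wildtype (SD, n = 4 each), a log2 difference of 0.019 (SE 0.39, edgeR adjusted p = 0.997). Prr5 averaged 36.8 ± 16.2 and 37.2 ± 16.0 CPM in libraries labelled knockout and wildtype, a log2 difference of -0.052 (SE 0.34, edgeR adjusted p = 0.994). For both genes the spread within a label came from its library number 4. Slc16a1 averaged 36.2 ± 24.7 CPM in libraries labelled knockout and 28.3 ± 14.8 CPM in libraries labelled wildtype, a log2 difference of 0.31 (SE 0.49, edgeR adjusted p = 0.959). Among lower members, Ciart averaged 8.11 ± 3.02 and 9.53 ± 5.06 CPM in libraries labelled knockout and wildtype, a log2 difference of -0.26 (SE 0.45, edgeR adjusted p = 0.966). Cyp2a5 averaged 61.9 ± 30.2 CPM in libraries labelled knockout and 50.4 ± 18.7 CPM in libraries labelled wildtype, a log2 difference of 0.28 (SE 0.46, edgeR adjusted p = 0.962), which was 0.031 without knockout 1 and 0.58 without knockout 4. The widest difference, 2.14 (SE 1.32, edgeR adjusted p = 0.957) for ENSMUSG00000093098, rests on knockout 1, and without that library it was -0.019. With both libraries numbered 4 left out, 0 members and 0 genes were called, with 309 genes at an unadjusted p under 0.05.

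**Figure D4:**
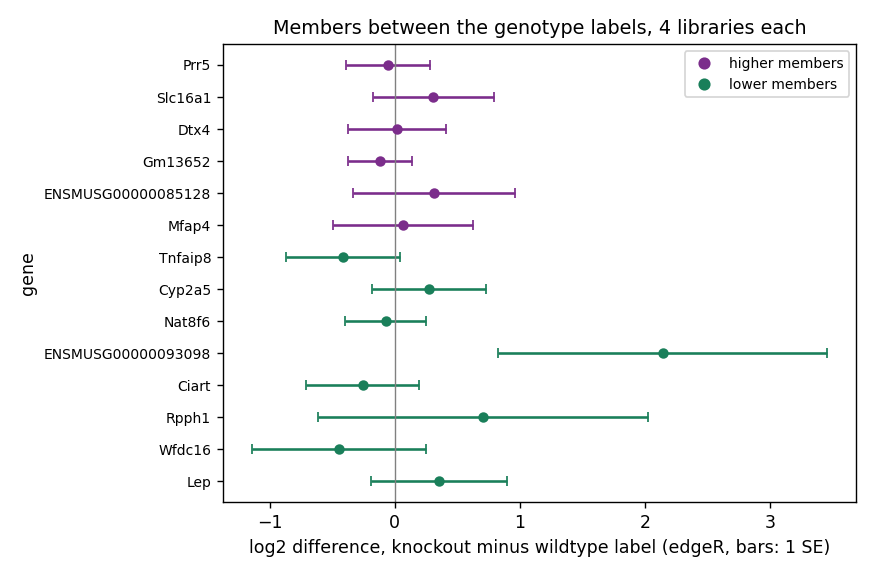
Log2 difference between libraries labelled knockout and libraries labelled wildtype for each member, with bars of 1 standard error from edgeR, 4 libraries each. The points of the higher members (purple) lie between -0.12 and 0.31 and those of the lower members (green) between -0.45 and 2.14, and no member passed the test.

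Whether the members follow the clock genes in the 6 libraries that the rule treated as one side is a separate question, because the order among those 6 was not used. Dbp was at 62.2 to 133 CPM in them. On log2(CPM + 0.5), Ciart followed Dbp with Pearson r = 0.95 (permutation p = 0.0125, exact over 720 arrangements) and Spearman rho = 0.94 (exact permutation p = 0.0167), and r was 0.87 without knockout 1 and wildtype 3, the libraries farthest from the median of Dbp. Wfdc16 had r = 0.81 (exact permutation p = 0.0556) and rho = 0.71 (exact permutation p = 0.136), and 0.64 without these libraries. Slc16a1 ran the other way, with r = -0.77 (exact permutation p = 0.0694) and rho = -0.89 (exact permutation p = 0.0333), and -0.73 without them. Adjusted over all 13010 genes, no relation passed: the smallest adjusted p of any gene was 0.840, and that of each of these 3 members was 0.956.

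The unannotated ENSMUSG00000093098 had r = -0.77 (exact permutation p = 0.0611) and rho = -0.60 (exact permutation p = 0.242). Tnfaip8 had r = 0.69 (exact permutation p = 0.124), Mfap4 r = -0.75 (exact permutation p = 0.1) and Dtx4 r = -0.59 (exact permutation p = 0.228). Without knockout 1 and wildtype 3 the value for Mfap4 was -0.30 and that for ENSMUSG00000093098 -0.09, against -0.77 with them, so these relations rest on those libraries. Leaving them out turned the sign of r for 5 members: it was 0.76 without them and -0.45 with them for Cyp2a5, -0.78 and 0.38 for ENSMUSG00000085128, -0.74 and 0.21 for Gm13652, -0.56 and 0.26 for Prr5, and 0.054 and -0.21 for Rpph1. Of 8 lower members 2 had r of 0.8 or more, where 2.13% of all genes did, and of 6 higher members 0 had r of -0.8 or less, where 2.76% of all genes did. Clock genes outside the members were not all close to Dbp over the same 6 libraries. Tef had r = 0.93, Per3 r = 0.85, Arntl r = -0.89, Nr1d2 r = 0.51 and Npas2 r = -0.47. Without knockout 1 and wildtype 3 these values were 0.89, 0.62, -0.98, 0.999 and -0.74. These 6 points share depth and tissue makeup, and the part of these in r was not tested. No relation of the members with Arntl is given, as its levels in the 6 libraries fell into groups of 3 (1.77 to 2.58 CPM and 5.20 to 6.49 CPM). Dbp parted the same groups with a narrower gap. It was at 104 to 133 CPM in knockout 3, wildtype 1 and wildtype 3, and at 62.2 to 83.7 CPM in knockout 1, knockout 2 and wildtype 2. The part of this split in the r values with Dbp was not tested.

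**Figure D5:**
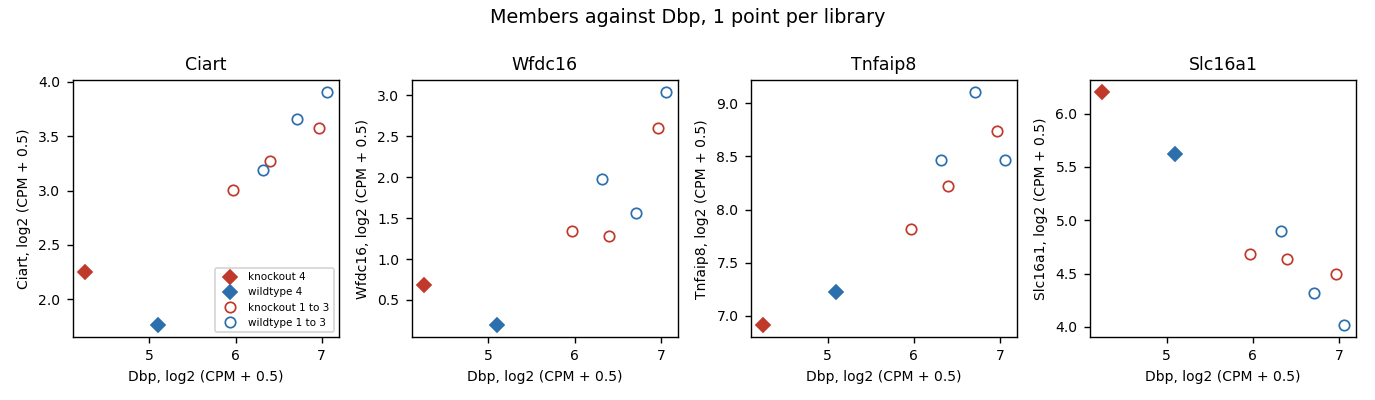
Ciart, Wfdc16, Tnfaip8 and Slc16a1 against Dbp, both as log2(CPM + 0.5), 1 point per library. Diamonds are knockout 4 and wildtype 4, which were not used in the correlations, and open circles the other 6. Ciart climbs with Dbp over the circles (r = 0.95) and Slc16a1 declines (r = -0.77).

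The members also differed within the pair of libraries. On CPM all 6 higher members were higher in knockout 4 than in wildtype 4, by 1.01 to 2.25 times. Of 8 lower members 4 were higher and 4 lower in knockout 4. Prr5 (1.01) and Gm13652 (1.02) were nearly level, and their order depends on scaling. TMM factors were 1.03 for knockout 4 and 0.992 for wildtype 4, which lowers every such ratio. The share of all genes higher in knockout 4 was not counted, so 6 of 6 is not read as a trait of the members. Wfdc16 was 1.72 times and Ciart 1.48 times as high in knockout 4 as in wildtype 4, while Dbp was lower in knockout 4, at 18.5 CPM, than in wildtype 4, at 33.8 CPM. Cyp2a5 was 0.674 times and Tnfaip8 0.802 times as high in knockout 4. With 1 library on each side these ratios have no replicate check. Among the other 6 libraries, no single one was nearest to the pair for most members: wildtype 2 was nearest for 2 of 6 higher members and knockout 2 for 3 of 8 lower members.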

How the data were processed

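Raw counts of reads per gene were deposited for each whole-kidney library. STAR, HTSeq and edgeR were used with the build mm9, per the submitters' processing notes, and no source used here gives their versions or the annotation. Counting ignored strand, per the deposited names. Lines that name no gene were left out of library sizes: 11.6% to 16.2% fell outside genes, 2.05% to 2.31% were ambiguous and 15.8% to 20.9% had no unique alignment.

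Of 37583 identifiers, 32860 matched a symbol in GENCODE M21, whose GRCm38 positions are given. The members, gene lists and tests were chosen with earlier results of these data known, and genes were named by abundance, ratio, list membership and nearness to the limits, which here covered every member. CPM is the count over the library's gene total, and its scaling by TMM was an alternative. The 2 libraries were set apart by measured clock gene levels. The genotype test was edgeR 4.0.16 (R 4.3.3; TMM, default filterByExpr with minimum count 10 and total 15, robust quasi-likelihood, 2-sided, Benjamini-Hochberg at 0.05), with SE from the same fit. DESeq2 1.42.0 was an alternative. Correlations were tested by exact 2-sided permutation. No library was a copy of another (chi-square per gene at least 10.8). Promoters and motif searches used the RefSeq table. Figures were drawn with matplotlib 3.10.9.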

Additional observations from a re-analysis of the deposited data

Results flagged for a closer look

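Each label's 4 libraries were checked for a value far from the other 3 in each of the 14 members, by Dixon's 95% criterion on the gap over the range, 28 checks in all, of which chance flags about 5%. Among libraries labelled knockout, Slc16a1 at 73.2 CPM, Dtx4 at 41.3 CPM and ENSMUSG00000085128 at 12.7 CPM stood apart in knockout 4. Among libraries labelled wildtype, Nat8f6 at 29.1 CPM and Gm13652 at 8.25 CPM stood apart in wildtype 4. These 5 are values on which the members were selected. The other 3 lie in libraries on the opposite side of the selection: Rpph1 at 27.6 CPM in knockout 1 and 16.7 CPM in wildtype 3, and ENSMUSG00000093098 at 67.3 CPM in knockout 1.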

How the results depend on the processing

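With a fold of 2 and 0.5 in place of 1.5 and 0.67, 1 gene was higher and 5 lower, of which 1 had reads in each of the other 6 libraries. With a minimum of 0.5 CPM, 16 were higher, 44 lower and 21 lower with reads in each. With 1 library left out at a time the counts were 6 to 85 higher, 9 to 62 lower and 9 to 57 lower with reads in each; 13, 14 and 15 of the last came without knockout 2, wildtype 2 and wildtype 3, and 52 without knockout 4. Without knockout 2 and wildtype 1, a choice made after seeing the data, they were 26, 20 and 20. A minimum of 5 CPM (5, 10 and 7) and TMM sizes (6, 14 and 10) stayed within 1.5 times. In the genotype contrast 0 members were called under every alternative, and over all genes 4 by DESeq2 and 0 to 2 with 1 library left out (1 without knockout 3, 1 without knockout 4, 2 without wildtype 1).

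The log2 difference turned sign with both libraries numbered 4 left out for Mfap4 (-0.035) and ENSMUSG00000085128 (-0.54), and for ENSMUSG00000085128 also with a replicate block (-0.092). With 1 library left out it ranged from -0.27 to 0.70 for Slc16a1, -0.39 to 0.27 for Prr5, -0.56 to 0.0098 for Ciart, -0.36 to 0.41 for Dtx4, -0.60 to 0.63 for Mfap4, -0.26 to 0.68 for Lep, -1.12 to 0.25 for Wfdc16, -0.31 to 0.16 for Nat8f6, -0.81 to 0.64 for ENSMUSG00000085128, -0.37 to 0.083 for Gm13652, -1.05 to 2.38 for Rpph1, -0.019 to 3.05 for ENSMUSG00000093098, and, with no change of sign, 0.031 to 0.58 for Cyp2a5 and -0.76 to -0.12 for Tnfaip8. The cause was not tested. Same-numbered libraries deviated together with r of 0.23, -0.23, 0.28 and 0.29, so the numbers were not taken as pairs, and not every library was closest to its own number. The replicate block called 0 members and 0 genes, with 1075 genes at an unadjusted p under 0.05 against 578 without it, and 1 member under 0.05 (ENSMUSG00000093098, edgeR adjusted p = 0.668) against 0. Depth limits Lep, Mfap4, Wfdc16, Rpph1 and ENSMUSG00000093098, with at most 40 reads in knockout 4 or wildtype 4.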
